A study of Mus musculus with 6 samples.

Results

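The 31 genes described here make cholesterol, set how much of it a cell makes, or move it within and out of the cell. They were taken from the deposited table by symbol, and all 31 of 31 listed symbols were found among its 55487 genes, each with 1 identifier. Of these, 8 belong to the mevalonate and isoprenoid steps, 11 to the steps from squalene to cholesterol, 5 to the control of the sterol regulatory element-binding proteins (SREBPs), and 7 to sterol transport and efflux. Not every enzyme of the pathway is among them. All 31 had enough counts to be tested.

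RNA came from whole aorta of mice, in 3 control libraries whose genotype is given as LoxP (an Ogt gene flanked by loxP sites) and 3 libraries with Ogt deleted in smooth muscle cells. Ogt encodes O-GlcNAc transferase, which modifies intracellular proteins with the sugar N-acetylglucosamine. The sample titles name SM22, the product of Tagln, whose promoter is widely used to drive Cre in smooth muscle and is also active in the embryonic heart. Whether the controls carry Cre, and the strain, age and sex of the mice and the number of mice per library, could not be read from the labels. The p-values therefore rest on differences among 6 libraries that may not each be a separate mouse, and technical variation can enter them.

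Cholesterol is built from acetyl-CoA through mevalonate and squalene. SREBP-2 and SREBP-1 are transcription factors made as membrane proteins of the endoplasmic reticulum. When sterols are scarce, the escort protein SCAP carries them to the Golgi, where proteases release the active part, which raises transcription of synthesis genes. When sterols are plentiful, INSIG proteins hold SCAP back, while oxysterols activate the liver X receptors (LXRs), which raise transcription of the exporters ABCA1 and ABCG1. INSIG1 is itself a target of SREBPs. In the artery wall, smooth muscle cells and macrophages that take up more cholesterol than they export become foam cells.

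Control replicate 2 held 3038782 counts in total and the other 5 libraries between 11845644 and 18218385. The former also stood apart in composition, with 10.2% of its counts on mitochondrial ribosomal RNA against 0.491% to 0.823% elsewhere. The 31 genes together took 0.0912% to 0.113% of the counts of a library. The lowest count of any of them was 8 in control replicate 2 (Mvd and Abcg1) and between 33 and 68 in each of the other libraries, so values of the scarcest genes in that library rest on few reads. Levels below are given as CPM, the count scaled to a library size adjusted by trimmed mean of M values (TMM). Ogt itself had 177, 183 and 150.0 CPM in control replicates 1 to 3 and 93.3, 73.5 and 70.9 CPM in knockout replicates 1 to 3 (log2 fold change -1.10 ± 0.15 (SE), edgeR adjusted p = 0.0214).

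Insig1 was the 1 gene of the 31 that passed the test, and it was lower in the knockout. Control replicates 1 to 3 had 58.1, 57.1 and 44.7 CPM of Insig1, and knockout replicates 1 to 3 had 30.5, 31.9 and 25.9 CPM. Every knockout library was below every control library. The mean went from 53.3 ± 7.45 to 29.4 ± 3.12 CPM (SD, n = 3), a knockout level of 55.2% (log2 fold change -0.85 ± 0.15 (SE), edgeR adjusted p = 0.0346). A call rate of 1 in 31 (3.23%) was near the background, since 3.45% of all 16139 genes tested were called, 1.56% as lower and 1.9% as higher. Insig1 no longer passed when control replicate 1 was left out (edgeR adjusted p = 0.122), or knockout replicate 1 (0.166), 2 (0.141) or 3 (0.0927), with a log2 fold change between -0.97 and -0.76 whichever library was left out. In those fits, in the same order, 7, 12, 13 and 33 of all genes passed. Ogt did not pass in them either (edgeR adjusted p = 0.105, 0.0729, 0.126 and 0.0732). Insig1 lies on chromosome 5, from 28071363 to 28078662 (GRCm38; ENSMUSG00000045294), and no other gene of the GENCODE M21 annotation overlaps it.

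**Figure D1:**
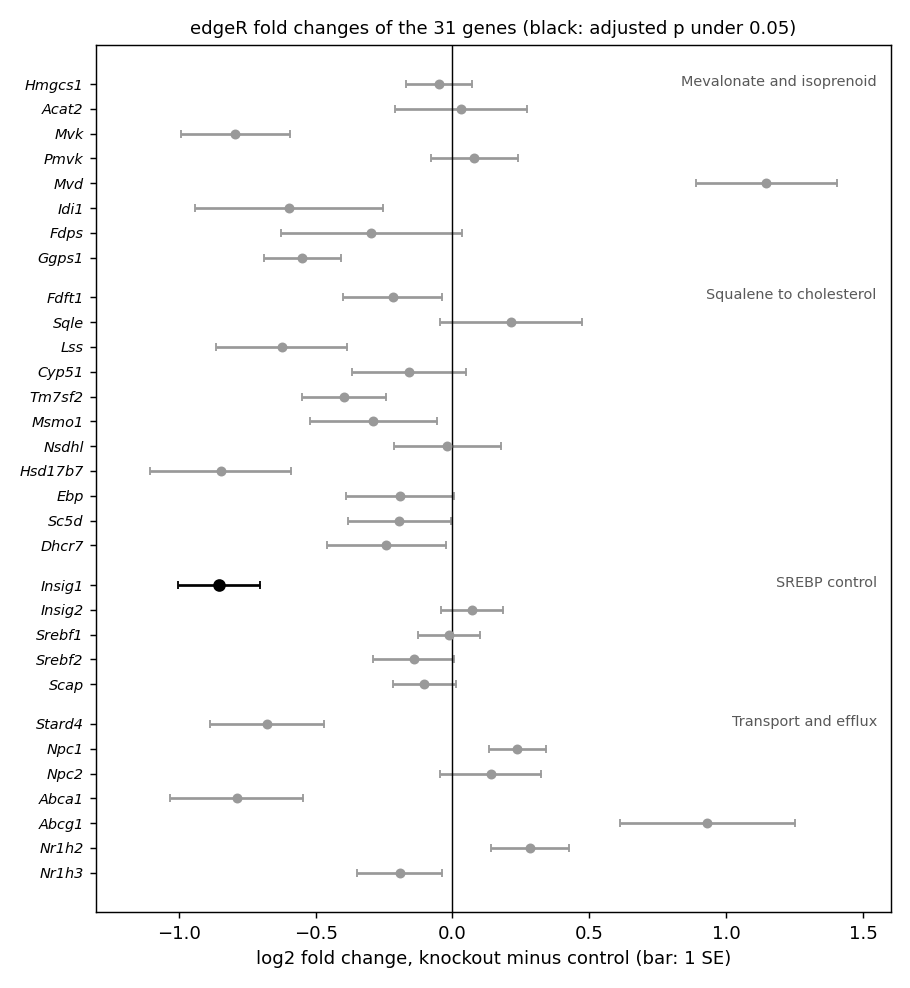
Log2 fold change (knockout minus control, x axis) of each of the 31 genes (y axis, grouped by role), with bars of 1 SE from edgeR and black marking an adjusted p under 0.05. Insig1, at -0.85, is the 1 black point; Mvd (1.15) and Abcg1 (0.93) lie farthest to the right, and 22 of the 31 points lie below 0.

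Over all 31 genes the log2 fold changes were negative for 22 and positive for 9, with a median of -0.19, against 51.3% negative and a median of -0.01 over all genes tested. Values of the 2 groups were fully separated for 12 of the genes (38.7%, against 31.8% of all genes tested). Of these, 9 were lower in the knockout (29% of the 31, where 14.8% of all genes tested were) and 3 were higher (9.68%, where 16.9% were). An unadjusted p under 0.05 was found for 10 genes, 8 lower and 2 higher (32.3%, against 22.7% of all genes; 11.3% of all genes were lower and 11.5% higher). DESeq2 called 5 of the 31 (Insig1, Mvk, Ggps1 and Abca1 lower, Mvd higher) while calling 10% of the genes it tested, 4.95% lower and 5.09% higher. With limma voom, Insig1 alone was called, against 4.73% of all genes (2.33% lower). The median moved to -0.093 without control replicate 3, to -0.10 without knockout replicate 2, to -0.12 without knockout replicate 1 and to -0.13 without control replicate 2.

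The other genes of SREBP control showed small differences. Insig2 encodes the second INSIG protein, and is not controlled by SREBPs in the way Insig1 is. Insig2 had 42.8, 43.8 and 44.8 CPM in control replicates 1 to 3 and 45.3, 42.6 and 50.1 CPM in knockout replicates 1 to 3. Its groups overlapped and its log2 fold change was 0.07 ± 0.11 (edgeR adjusted p = 0.743). Scaled for gene length, the level of Insig1 was 2.97, 2.86 and 2.19 times that of Insig2 in control replicates 1 to 3 and 1.47, 1.64 and 1.13 times in knockout replicates 1 to 3. On that scale Insig1 was the more abundant INSIG transcript in all 6 libraries. That order rests on the gene lengths behind the deposited values. The length they imply for Insig2 is well above its 3473 exon bases in GENCODE M21. In CPM, Insig2 was above Insig1 in every knockout library and in control replicate 3 (44.8 against 44.7), and below it in control replicates 1 and 2. With any fixed lengths, the ratio of Insig1 to Insig2 was smaller in each knockout library than in any control library. The log2 ratio had p = 0.1 in an exact permutation test (two-sided), and 3 libraries a group can give no smaller value (adjusted p = 0.125 over 5 ratios, which were chosen with the values known).

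Srebf2, which encodes SREBP-2, the main driver of cholesterol synthesis genes, had 118, 123 and 115 CPM in control replicates 1 to 3. Knockout replicates 1 and 2 had 95.5 and 97.1 CPM of Srebf2, below all controls, and knockout replicate 3 had 130.1 CPM, above them. Its log2 fold change was -0.14 ± 0.15 (edgeR adjusted p = 0.61). Srebf1, which encodes the SREBP-1 isoforms that act more on fatty acid synthesis, ran from 74.5 to 77.7 CPM in controls and from 69.5 to 83.3 CPM in knockouts (log2 fold change -0.01 ± 0.11). Scap ran from 57.5 to 65.1 CPM in controls and from 52.2 to 59.9 CPM in knockouts (-0.10 ± 0.11). Scaled for length, Srebf2 was at 1.20, 1.29 and 1.16 times the level of Srebf1 in control replicates 1 to 3 and at 0.901, 1.10 and 1.36 times in knockout replicates 1 to 3. The groups overlapped in this ratio (exact permutation p = 0.5, adjusted p = 0.5). None of these 3 genes passed the test, and the values of each overlapped between the groups.

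In the mevalonate and isoprenoid steps, edgeR called 0 of 8 genes, 3 had an unadjusted p under 0.05, DESeq2 called 3 and limma voom 0. Those 3 were Mvk and Ggps1, with lower values in the knockout, and Mvd, with higher values. The median log2 fold change of the 8 was -0.17. It was -0.29 without knockout replicate 3, and -0.11 without control replicate 3 or without knockout replicate 2. The 3 genes with an unadjusted p under 0.05 were also the 3 whose groups did not overlap (37.5% of the 8, against 22.7% of all genes for the first count and 31.8% for the second). The remaining 5 genes had overlapping groups.

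Mvk encodes mevalonate kinase, which adds the first phosphate to mevalonate. Its level was 13.3, 19.3 and 15.8 CPM in control replicates 1 to 3 and 9.36, 7.65 and 10.4 CPM in knockout replicates 1 to 3. All knockout values lay below all control values, with means of 16.1 ± 3.02 and 9.14 ± 1.40 CPM (SD, n = 3; log2 fold change -0.79 ± 0.20 (SE), edgeR adjusted p = 0.0736). Mvd encodes mevalonate diphosphate decarboxylase, which makes isopentenyl diphosphate a few steps later. Mvd had 4.19, 2.97 and 4.07 CPM in control replicates 1 to 3 and 11.2, 7.18 and 7.47 CPM in knockout replicates 1 to 3. Mvd was thus higher in every knockout library than in any control, at 3.74 ± 0.676 and 8.63 ± 2.26 CPM (SD, n = 3; log2 fold change 1.15 ± 0.26 (SE), edgeR adjusted p = 0.0569). These 2 enzymes of the same short pathway had values in opposite directions. The length-scaled level of Mvd was 0.759, 0.369 and 0.620 times that of Mvk in control replicates 1 to 3 and 2.88, 2.25 and 1.72 times in knockout replicates 1 to 3. On that scale the order of the 2 transcripts differed between every control and every knockout library. The exchange rests on the gene lengths used, since in CPM Mvd was above Mvk in knockout replicate 1 only. The exact permutation test of the log2 length-scaled ratio also gave p = 0.1 (adjusted p = 0.125). With both genes fully separated in opposite directions, that test could give no other p, so it adds no support.

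Ggps1 encodes the synthase of geranylgeranyl diphosphate, an isoprenoid lipid made in a branch of the pathway. Control replicates 1 to 3 had 41.2, 36.3 and 39.4 CPM of Ggps1 and knockout replicates 1 to 3 had 22.6, 27.7 and 29.8 CPM. The groups did not overlap, the knockout mean was 68.5% of control, and the log2 fold change was -0.55 ± 0.14 (edgeR adjusted p = 0.0772). Idi1, the isopentenyl diphosphate isomerase, had 10.4, 16.3 and 10.5 CPM in control replicates 1 to 3 and 6.13, 5.53 and 12.1 CPM in knockout replicates 1 to 3. Its knockout replicate 3 lay within the control range, and its log2 fold change was -0.60 ± 0.34 (edgeR adjusted p = 0.347). That fold change was -0.39 without control replicate 2 or without knockout replicate 2, and -1.05 without knockout replicate 3. Fdps, the farnesyl diphosphate synthase, ran from 4.08 to 10.1 CPM in controls and from 5.53 to 8.78 CPM in knockouts. Fdps shares 26.7% of its exon bases with Gm43738, a gene on the same strand (3 to 21 counts per library), so part of its count is uncertain. Hmgcs1, the HMG-CoA synthase at the entry to the pathway, ran from 44.9 to 54.1 CPM in controls and from 44.5 to 47.5 CPM in knockouts, with a log2 fold change of -0.05 ± 0.12. Acat2, the cytosolic acetoacetyl-CoA thiolase, and Pmvk, the phosphomevalonate kinase, had log2 fold changes of 0.03 ± 0.24 and 0.08 ± 0.16. The sign of the fold change of Hmgcs1, Acat2 and Pmvk depended on which library was left out.

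Of the genes with a promoter window, Hmgcs1 alone matched the form of the sterol regulatory element that was searched. Promoter sequences are shown for Hmgcs1, for Insig1, the called gene, and for Mvk and Mvd, which differed in direction. Each runs from 250 bases before the annotated start to 50 after it (RefSeq, GRCm38.p6). Capitals mark TCACNCCAC, a form of the sterol regulatory element, and CCAAT, the core bound by NF-Y, a factor that acts with SREBPs. A match on the opposite strand of CCAAT reads ATTGG. The searched motifs do not overlap in these windows.
Insig1, chr5:28071162-28071461, plus strand: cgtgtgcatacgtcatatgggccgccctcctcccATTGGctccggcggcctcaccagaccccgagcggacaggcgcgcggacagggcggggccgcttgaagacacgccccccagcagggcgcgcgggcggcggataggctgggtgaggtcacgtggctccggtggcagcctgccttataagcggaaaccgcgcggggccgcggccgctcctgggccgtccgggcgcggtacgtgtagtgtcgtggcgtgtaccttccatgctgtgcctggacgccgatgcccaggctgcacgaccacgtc
Mvk, chr5:114444019-114444318, plus strand: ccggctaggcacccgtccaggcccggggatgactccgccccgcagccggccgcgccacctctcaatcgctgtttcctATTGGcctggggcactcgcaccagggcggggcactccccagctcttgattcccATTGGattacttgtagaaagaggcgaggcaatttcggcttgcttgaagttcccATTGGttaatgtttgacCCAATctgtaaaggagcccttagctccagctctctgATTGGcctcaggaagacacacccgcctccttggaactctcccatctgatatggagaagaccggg
Mvd, chr8:122443373-122443672, minus strand: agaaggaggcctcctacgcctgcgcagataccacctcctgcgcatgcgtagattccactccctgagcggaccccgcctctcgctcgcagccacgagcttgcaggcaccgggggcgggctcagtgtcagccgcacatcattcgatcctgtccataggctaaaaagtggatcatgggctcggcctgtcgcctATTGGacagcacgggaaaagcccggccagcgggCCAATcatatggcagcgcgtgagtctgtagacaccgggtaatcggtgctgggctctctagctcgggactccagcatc
Hmgcs1, chr13:119690101-119690400, plus strand: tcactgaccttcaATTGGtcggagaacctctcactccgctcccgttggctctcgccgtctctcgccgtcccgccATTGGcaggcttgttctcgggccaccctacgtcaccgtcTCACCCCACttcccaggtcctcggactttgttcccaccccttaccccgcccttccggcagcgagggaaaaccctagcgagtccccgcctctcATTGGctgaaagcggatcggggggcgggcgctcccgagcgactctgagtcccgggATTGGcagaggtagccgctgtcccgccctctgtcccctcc

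Windows were found for 25 of the 31 genes, and the remaining 6 were Npc1, Stard4, Sqle, Fdps, Fdft1 and Abcg1. TCACNCCAC matched on either strand in Hmgcs1 alone, starting 137 bases before the start site, where 1.44% of all 26994 genes with a window had a match. CCAAT matched in 20 of the 25 genes, where 41% of all genes had a match. Some genes had more than 1 window, and by window CCAAT matched in 21 of 34, against 37.4% of all windows. Mvk had 5 matches, Hmgcs1 had 4, Mvd had 2 and Insig1 had 1, so genes lower, level and higher in the knockout each had matches. CACGTG, the E-box that SREBP-1 can also bind, matched in 6 of the 25 genes (Abca1, Dhcr7, Hsd17b7, Insig1, Sc5d and Scap), where 8.09% of all genes had a match. By window, it matched in 7 of 34, against 7.15% of all windows. In the Insig1 sequence above it starts 101 bases before the start site. A match describes the letters of these windows and was not tested as a binding site. Other forms of these motifs, and bases outside the windows, were not searched.

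Mvk and Ggps1 share their start regions with a gene on the opposite strand. Mmab, which encodes the cobalamin adenosyltransferase, starts 209 bases from Mvk and points away from it. Mmab had 11.3, 7.79 and 11.4 CPM in control replicates 1 to 3 and 6.38, 4.59 and 6.92 CPM in knockout replicates 1 to 3 (log2 fold change -0.80 ± 0.24, edgeR adjusted p = 0.104). Its groups, like those of Mvk, did not overlap. Arid4b, which encodes a subunit of a histone deacetylase complex, overlaps the start of Ggps1 by 257 exon bases. Arid4b had 59.8, 66.0 and 52.1 CPM in control replicates 1 to 3 and 27.8, 33.6 and 35.7 CPM in knockout replicates 1 to 3, and was called lower (log2 fold change -0.87 ± 0.15, edgeR adjusted p = 0.0323). Reads from the shared 5.44% of Ggps1 exon bases cannot be assigned, because the strand setting of the counting is not given. The start-to-start neighbours of Nsdhl (Cetn2), Dhcr7 (Nadsyn1) and Npc2 (Isca2) had overlapping groups. Acp2, next to Nr1h3, did not overlap between groups and was not called (log2 fold change -0.43 ± 0.18, edgeR adjusted p = 0.212). All 6 neighbours were looked up by distance, within 1000 bases, with the values of the members known.

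**Figure D2:**
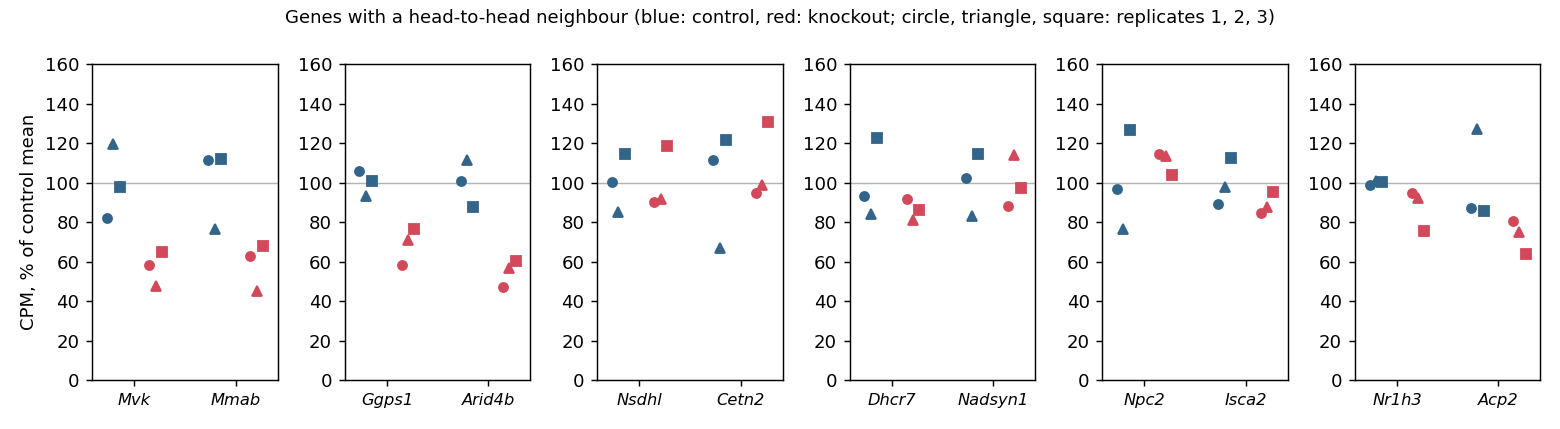
CPM as a percentage of the gene's control mean (y axis) for 6 genes and the gene that starts within 1000 bases on the opposite strand, in the 3 control (blue) and 3 knockout (red) libraries. Knockout values of Mvk and Mmab, and of Ggps1 and Arid4b, lie below all control values in each pair, while those of Nsdhl and Cetn2, Dhcr7 and Nadsyn1, and Npc2 and Isca2 overlap with control. Knockout values of Nr1h3 and of Acp2 also lie below all of their control values.

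In the steps from squalene to cholesterol, edgeR, DESeq2 and limma voom each called 0 of 11 genes. In edgeR 3 had an unadjusted p under 0.05 (27.3%, against 22.7% of all genes). Log2 fold changes were negative for 10 of the 11, with a median of -0.22. That median was -0.14 without control replicate 3 and -0.32 without control replicate 1 or without control replicate 2. Hsd17b7, Lss and Tm7sf2 were the 3 whose groups did not overlap (27.3% of the 11, against 31.8% of all genes in either direction). All 3 were lower in the knockout, where 14.8% of all genes were. The other 8 genes overlapped between the groups.

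Hsd17b7 encodes a reductase of the sterol demethylation complex. Control replicates 1 to 3 had 5.09, 6.30 and 5.02 CPM of Hsd17b7 and knockout replicates 1 to 3 had 2.81, 2.41 and 3.71 CPM, and the knockout mean was 54.4% of that in controls (log2 fold change -0.85 ± 0.26, edgeR adjusted p = 0.111). Lss, the lanosterol synthase that closes the sterol rings, had 15.5, 12.6 and 14.0 CPM in control replicates 1 to 3 and 6.64, 8.53 and 12.2 CPM in knockout replicates 1 to 3. The highest knockout value of Lss was close to the lowest control value, and its log2 fold change was -0.62 ± 0.24 (edgeR adjusted p = 0.18). Tm7sf2, a sterol reductase, had 12.3, 12.2 and 11.6 CPM in control replicates 1 to 3 and 9.95, 9.12 and 8.34 CPM in knockout replicates 1 to 3. Its spread was small in both groups, and so was its difference (-0.40 ± 0.15, edgeR adjusted p = 0.184). Tm7sf2 shares 12.1% of its exon bases with Vps51 on the same strand, so its count is uncertain.

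Sqle, the squalene epoxidase and a rate-limiting enzyme, was the 1 gene of this arm with a positive log2 fold change (0.21 ± 0.26). Control replicates 1 to 3 had 16.2, 14.5 and 13.7 CPM of Sqle, while knockout replicates 1 to 3 had 18.5, 10.9 and 22.0 CPM. Knockout replicates 1 and 3 were above all controls and knockout replicate 2 was below them, so the sign rested on the libraries used. Log2 fold changes were -0.22 ± 0.18 for Fdft1 (squalene synthase), -0.16 ± 0.21 for Cyp51 (lanosterol demethylase) and -0.29 ± 0.23 for Msmo1 (sterol methyl oxidase). They were -0.02 ± 0.20 for Nsdhl (sterol dehydrogenase), -0.19 ± 0.20 for Ebp (sterol isomerase), -0.19 ± 0.19 for Sc5d (sterol desaturase) and -0.24 ± 0.22 for Dhcr7 (the last reductase). Fdft1 shares 18.3% of its exon bases with the far more abundant Ctsb on the opposite strand, and its values are uncertain for that reason. Cyp51 shares 3.76% of its exon bases with the more abundant Akap9, also on the opposite strand, which limits its values in the same way.

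The synthesis genes were spread unevenly among the knockout libraries. Knockout replicate 3 had the highest value of its group for 15 of the 19 synthesis genes, where it was highest for 35.8% of all genes tested. Knockout replicate 2 had the lowest value for 11 of the 19, where it was lowest for 29.9% of all genes. The summed level of the 19 genes was 317, 326 and 331 CPM in control replicates 1 to 3 and 268, 259 and 318 CPM in knockout replicates 1 to 3. Knockout replicates 1 and 2 lay below the controls and knockout replicate 3 within their range. Srebf2 also had its highest value of the group in knockout replicate 3, whereas Insig1 had its lowest value there. For the 12 control and transport genes, knockout replicate 3 was highest for 4 and lowest for 6.

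In sterol transport and efflux, edgeR called 0 of 7 genes, 3 had an unadjusted p under 0.05, DESeq2 called 1 (Abca1, lower) and limma voom 0. The values of 5 of the 7 did not overlap between groups, with Abca1, Stard4 and Nr1h3 lower in the knockout and Abcg1 and Npc1 higher. That is 71.4% of the 7, where 31.8% of all genes did not overlap, with 42.9% lower and 28.6% higher, where 14.8% and 16.9% of all genes were. The 3 at an unadjusted p under 0.05 are 42.9% of the 7, against 22.7% of all genes. The median log2 fold change was 0.14, and it was -0.0093 without control replicate 2 and 0.28 without control replicate 3. The arm had no common direction.

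Abca1 and Abcg1, the exporters that load cholesterol onto lipid-poor and mature high-density lipoprotein particles, lay on opposite sides. Abca1 had 50.5, 98.3 and 61.2 CPM in control replicates 1 to 3 and 37.9, 44.9 and 36.9 CPM in knockout replicates 1 to 3. The highest value was that of control replicate 2, the shallow library. The means were 70.0 ± 25.1 and 39.9 ± 4.37 CPM (SD, n = 3; log2 fold change -0.79 ± 0.24 (SE), edgeR adjusted p = 0.113), and without control replicate 2 the log2 fold change was -0.48. Abcg1 had 3.71, 2.97 and 3.56 CPM in control replicates 1 to 3 and 7.83, 8.23 and 3.98 CPM in knockout replicates 1 to 3. Knockout replicates 1 and 2 were far above the controls and knockout replicate 3 only just above them (log2 fold change 0.93 ± 0.32, edgeR adjusted p = 0.145). Abcg1 was the scarcer exporter in all libraries, at 0.0931, 0.0382 and 0.0737 times the length-scaled level of Abca1 in control replicates 1 to 3 and 0.261, 0.232 and 0.136 times in knockout replicates 1 to 3. That log2 ratio was higher in each knockout library than in any control (exact permutation p = 0.1, adjusted p = 0.125). This followed from the full separation of both exporters in opposite directions, so the test adds no support.

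Both exporters are LXR targets, and the 2 LXR genes also differed in direction. Nr1h3, which encodes LXR alpha, had 13.5, 13.7 and 13.7 CPM in control replicates 1 to 3 and 12.9, 12.6 and 10.3 CPM in knockout replicates 1 to 3 (log2 fold change -0.19 ± 0.15). Its 3 control values were nearly equal, and all knockout values lay below them. Nr1h2, which encodes LXR beta, ran from 60.5 to 82.8 CPM in controls and from 81.2 to 93.2 CPM in knockouts, with groups that overlapped (0.28 ± 0.14). Scaled for length, Nr1h2 exceeded Nr1h3 by 2.39 to 3.22 times in controls and by 3.68 to 4.21 times in knockouts (exact permutation p = 0.1, adjusted p = 0.125). Neither gene was called (edgeR adjusted p = 0.499 for Nr1h3 and 0.284 for Nr1h2).

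Stard4 encodes a soluble sterol carrier and is an SREBP target. Stard4 had 15.3, 17.1 and 11.4 CPM in control replicates 1 to 3 and 7.66, 10.5 and 8.78 CPM in knockout replicates 1 to 3. No knockout value reached the lowest control value, and the log2 fold change was -0.68 ± 0.21 (edgeR adjusted p = 0.114). Npc1 and Npc2 together hand cholesterol out of the lysosome. Npc1 had 46.8, 45.6 and 50.5 CPM in control replicates 1 to 3 and 55.7, 56.2 and 56.8 CPM in knockout replicates 1 to 3, a small difference with little spread (0.24 ± 0.10, edgeR adjusted p = 0.226). Npc1 shares 4.52% of its exon bases with Rmc1 on the opposite strand, so part of its count is uncertain. Npc2 ran from 99.7 to 165 CPM in controls and from 135 to 149 CPM in knockouts, with a log2 fold change of 0.14 ± 0.18. Npc2 was the most abundant of the 31 transcripts per length, at 19.8 ± 5.02 FPKM (fragments scaled by gene length and by TMM library size) in controls and 22.0 ± 1.17 FPKM in knockouts.

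**Figure D3:**
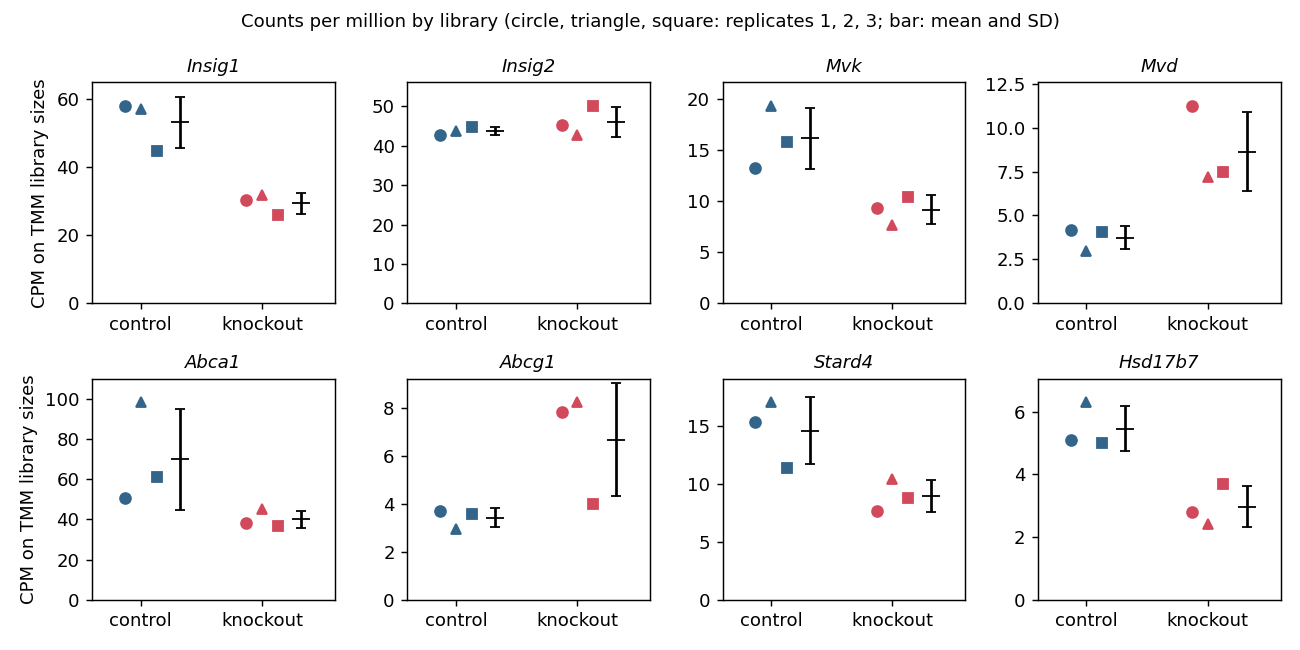
CPM (y axis, from 0) of 8 genes in the 3 control (blue) and 3 knockout (red) libraries, with the mean and SD beside each group. Insig1, Mvk, Abca1, Stard4 and Hsd17b7 are lower and Mvd and Abcg1 higher in all knockout libraries, while Insig2 overlaps; knockout replicate 3 of Abcg1, at 3.98 CPM, lies close to the controls.

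By length-scaled level, the controls ranked Npc2 first, followed by Insig1 (15.4 ± 2.16 FPKM), Srebf2 (10.1 ± 0.328) and Srebf1 (8.31 ± 0.189). Npc2 and Insig1 overlapped between control libraries, so their order does not exceed their spread. The highest synthesis gene was Hmgcs1 (7.13 ± 0.773 FPKM), and the lowest were Lss (0.759 ± 0.0775) and Dhcr7 (0.542 ± 0.110). Abcg1 had the lowest level of all 31 in controls, at 0.409 ± 0.0472 FPKM. In knockouts Insig1, at 8.52 ± 0.904 FPKM, took place 4, within the spread of Srebf2, Nr1h2 and Srebf1. Mvd went from place 23 of 31 in controls to place 11 in knockouts, and Mvk from 14 to 22. These ranks are descriptions of the same libraries and were not tested. They rest on the gene lengths behind the deposited FPKM, which exceed the annotated exon bases of some genes, Lss among them, more than those of others.

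**Figure D4:**
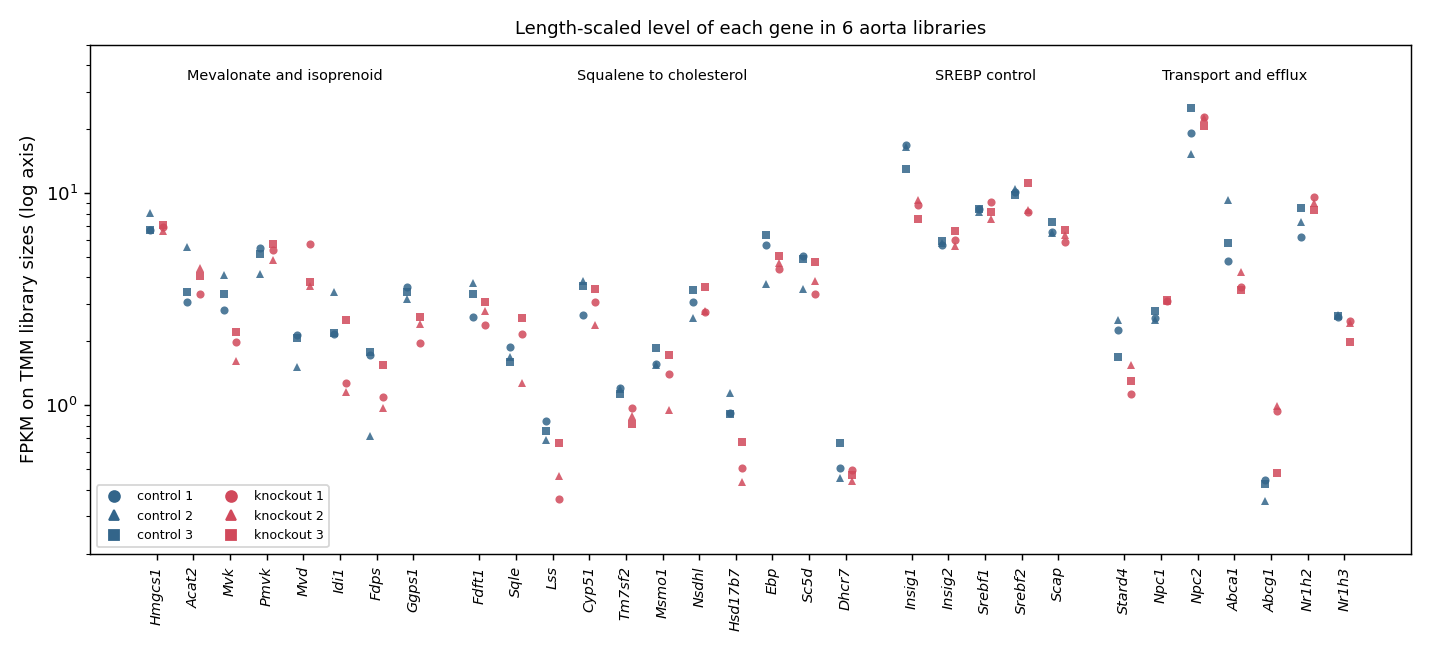
Length-scaled level (FPKM on TMM library sizes, log axis) of each of the 31 genes in the 3 control (blue) and 3 knockout (red) libraries, grouped by role. SREBP control genes lie above most synthesis genes, Npc2 is highest, and on this length-scaled axis Mvk and Mvd exchange order between the groups.

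Other genes of the pathway were taken from 4 further lists. Among 12 fatty acid synthesis genes, many of them SREBP-1 targets, edgeR, DESeq2 and limma voom called 0. In edgeR 1 had an unadjusted p under 0.05, the elongase Elovl5 (8.33% of the 12, against 22.7% of all genes). Elovl5 had 72.7, 82.7 and 81.0 CPM in control replicates 1 to 3 and 60.9, 63.9 and 57.2 CPM in knockout replicates 1 to 3 (log2 fold change -0.37 ± 0.11, edgeR adjusted p = 0.105). The fatty acid synthase Fasn and the desaturase Scd1 varied widely within groups, from 373 to 722 and from 688 to 1693 CPM in controls and from 251 to 478 and from 581 to 1120 CPM in knockouts. Fasn and Scd1 lie outside the rule for naming genes and were picked with their values known. The median log2 fold change of the list was -0.12.

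Among 11 genes of SREBP cleavage and of sterol-regulated protein degradation in the endoplasmic reticulum, edgeR called 1 higher and 0 lower. That is 9.09% of the 11, where 3.45% of all genes were called, 1.9% as higher. Aup1, which recruits degradation enzymes to the membrane and takes part in sterol-stimulated protein turnover, had 69.4, 56.4 and 80.3 CPM in control replicates 1 to 3 and 137, 116 and 106 CPM in knockout replicates 1 to 3. All knockout libraries were above all controls (log2 fold change 0.79 ± 0.16, edgeR adjusted p = 0.0479). Aup1 stayed called when control replicate 2 was left out, but not when any of the remaining 5 libraries was, with edgeR adjusted p up to 0.205. Among 13 genes of sterol esterification and transfer, edgeR called 0, with 3 at an unadjusted p under 0.05 (23.1%, against 22.7% of all genes). DESeq2 and limma voom also called 0 of them. Of the 3, Gramd1a, a sterol transporter at membrane contacts, had a positive log2 fold change (0.48 ± 0.15, edgeR adjusted p = 0.124), as had Osbp (0.33 ± 0.12), and Soat1, which esterifies cholesterol for storage, a negative value (-0.37 ± 0.15). Among 13 genes of lipoprotein uptake and LXR function, edgeR called 0, with 3 at an unadjusted p under 0.05 (again 23.1%, against 22.7%). DESeq2 and limma voom called 0 of the 13. The log2 fold change was positive for Rxrb, a partner of LXRs (0.44 ± 0.12, edgeR adjusted p = 0.0836), and negative for Lrp1 (-0.54 ± 0.22) and Abca7 (-0.34 ± 0.14).

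The whole aorta holds several cell types, and in such bulk RNA fewer cells of a type and less RNA per cell cannot be told apart. The 7 smooth muscle markers summed to between 23843 and 28914 CPM in controls and between 21586 and 25524 CPM in knockouts, the highest sums of any marker list, and all were detected in each library. EdgeR and limma voom called 0 of the 7 and DESeq2 called 1 lower. In edgeR 3 had an unadjusted p under 0.05 (2 lower, 1 higher), which is 42.9%, against 22.7% of all genes. Log2 fold changes of the smooth muscle markers were negative for 6 of 7, with a median of -0.26 beside the -0.19 of the 31 genes. The groups did not overlap for 4 of these markers (3 lower, 1 higher). That is 57.1% of the 7, against 31.8% of all genes. It is 42.9% lower and 14.3% higher, where 14.8% and 16.9% of all genes were. The part of this list in the values of the 31 genes was not tested. Of the 7 brown adipocyte markers, 3 of the 6 tested were called lower (50%, where 1.56% of all genes were). The 7 summed to 282 to 405 CPM in controls and 154 to 207 CPM in knockouts, with no marker at 0 in any library. Prdm16, whose groups overlapped, was the largest part of that sum (mean 187 of 324 CPM in controls and 109 of 172 CPM in knockouts). Like Insig1, the sum of this list was lower in every knockout library than in any control. Within each group the order of the libraries was not that of Insig1. The part of this list in the Insig1 result was not tested. The 8 white adipocyte markers (820 to 1091 CPM in controls, 685 to 972 CPM in knockouts) had overlapping sums and 0 called by edgeR, DESeq2 or limma voom. Of the 8, 3 had an unadjusted p under 0.05 in edgeR (37.5%, against 22.7% of all genes). The 9 macrophage markers, from cells that express both exporters, summed to 208 to 638 CPM in controls and 436 to 534 CPM in knockouts, with 9 positive log2 fold changes and 0 called by edgeR, DESeq2 or limma voom, and 0 at an unadjusted p under 0.05 in edgeR. The 7 endothelial markers summed to 732 to 896 CPM in controls and, in knockout replicates 1 to 3, to 1506, 1512 and 654 CPM. The order of the knockout libraries was that of Abcg1, high in replicates 1 and 2 and low in replicate 3, and the part of endothelial cells in the Abcg1 values was not tested. Fibroblast and blood markers had overlapping sums. The 7 striated muscle markers summed to 18.2 to 26.2 CPM in controls and 62.3 to 77.8 CPM in knockouts, with Myl2 and Myh4 at 0 in some libraries. Ckm, the muscle creatine kinase, made up that difference: it was called higher, at 2.82 to 3.78 CPM in controls and 42.5 to 63.0 CPM in knockouts. The other 6 striated muscle markers summed to 15.2 to 22.4 CPM in controls and 14.9 to 19.8 CPM in knockouts.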

How the data were processed

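RNA was sequenced from 6 whole-aorta libraries (3 per group), with groups and replicate numbers taken from the sample titles. Per the submitters' processing notes, CASAVA 1.8, HISAT2, SAMtools 1.3.1 and edgeR were used. Which program counted reads, on what annotation and with which strand setting, is not given in the sources used here. The authors deposited unnormalised whole-number counts per gene. They also deposited FPKM values, which the authors derived by dividing counts by a fixed gene length and by library totals (the implied length varied between libraries by at most a relative 1.4e-05 over 7705 genes with 50 or more counts throughout). FPKM were rescaled to TMM library sizes to compare levels between genes. The implied lengths were not those of the merged GENCODE M21 exons. They were far above them for Ggps1 (4721 exon bases), Tm7sf2 (4403) and Insig2 (3473), and close to them for Mvd (1859). Length-scaled ratios and ranks between genes are uncertain for that reason, while the change of a ratio between libraries does not depend on the lengths. The processing notes name GRCm39, yet positions of all 31 genes, and of 99.42% of the 55141 identifiers shared with GENCODE M21, are those of GRCm38.

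Counts of 16139 genes left by filterByExpr were tested with edgeR 4.0.16 in R 4.3.3 (TMM, glmQLFit with robust estimation, glmQLFTest), with Benjamini-Hochberg adjustment over all genes and a threshold of 0.05. Differences are given on the log2 scale, control subtracted from knockout, and their SE is the size of the change divided by the square root of F. No covariate was used. Alternatives were DESeq2 1.42.0, limma 3.58.1 (voom, and voom with library weights, the latter chosen after seeing the data), other scaling, no filter, no robust estimation, mitochondrial genes and Malat1 left out, a replicate block, and each library left out in turn. The steps were tested on simulated counts. The members, lists and ratios were chosen with earlier results of these data known. All 31 members are named. From the other 4 lists, genes past the threshold or with the smallest unadjusted p are named.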

Additional observations from a re-analysis of the deposited data

How the results depend on the processing

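The Insig1 log2 fold change stayed between -0.97 and -0.76 under all 14 alternatives, and its edgeR call was lost with the replicate block (adjusted p = 0.0798) and without each of 4 single libraries. Of 434 alternative values of the 31 genes, 403 kept their direction and side of the threshold, 5 lost a call, 9 gained a call and 17 changed sign, all of the last with an adjusted p above 0.8. The number of genes called lower was 4 by DESeq2 and 4 by limma voom with library weights, 0 with the replicate block, and 0 to 1 when a library was left out. The number called higher was 1 by DESeq2, 1 without the filter and 1 by limma voom with library weights (Mvd in each), against 0 as reported. Over all genes the calls were 557 as reported, 1490 by DESeq2, 763 by limma voom, 1784 by limma voom with library weights, 28 with the replicate block and 7 to 911 with a library left out. The number of genes of SREBP cleavage and degradation called higher was 0 without robust estimation, 0 with the replicate block, and 0 to 1 with a library left out.

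The mevalonate median was -0.31 by limma voom with library weights and -0.29 to -0.11 with a library left out; the transport and efflux median was -0.01 to 0.28, and that of all 31 genes -0.24 to -0.093. Signs changed for Hmgcs1 (0.0032 without the filter, and -0.095 to 0.042 with a library left out), Nsdhl (0.022 without the filter, -0.15 to 0.090), Srebf1 (0.036 without the filter, -0.072 to 0.054), Pmvk (-0.043 by limma voom with library weights, -0.0048 to 0.16) and Sqle (-0.041 by limma voom with library weights, -0.0055 to 0.46). With a library left out, Acat2 ran from -0.14 to 0.30 and Npc2 from -0.0093 to 0.35.

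The titles give both groups the replicate numbers 1 to 3, and the deviations of same-numbered libraries correlated at 0.0488, 0.103 and -0.0658, so the numbers were not taken as pairs. Control replicate 2, with 8 to 17 counts for the scarcest genes (Mvd, Abcg1, Fdps, Dhcr7 and Hsd17b7), limits what can be said of them.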
